A study of Rattus norvegicus with 11 samples.

Results

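IC-A/B is the name that the authors gave to 1777 of the 114615 kidney cells in their deposited table, and it is read here as a joint name for type A and type B intercalated cells. Its members were chosen by that name alone. The same table names 2552 cells IC-A and 2298 cells IC-B, so that 3 names cover the intercalated cells. The table gives UMIs, genes, the mitochondrial share, a phase and a map position for each cell, and no gene values. The markers Atp6v1g3, which encodes a subunit of the vacuolar proton pump, and Foxi1, the transcription factor that specifies intercalated cells, could therefore not be checked in these cells. The sources used here do not say how the authors arrived at the name.

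Intercalated cells lie scattered among principal cells in the connecting tubule and collecting duct and regulate acid and base. Type A cells secrete protons into the urine through a vacuolar proton pump in the apical membrane and return bicarbonate to the blood through the anion exchanger AE1. Type B cells work in the other direction and secrete bicarbonate in exchange for chloride through pendrin. Both are rich in mitochondria, and cells with features of both types are known.

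The cells came from 11 male ZSF1 rats, 12 weeks old on arrival. The sources used here do not give the age at collection. There were 4 lean animals and 7 obese ones, of which 4 had no enalapril and 3 had it in their drinking water. Enalapril is an inhibitor of angiotensin-converting enzyme. The labels give all 3 groups the same genotype, ZSF1-LeprfaLeprcp/Crl. In this strain the obese animals inherit a defective leptin receptor allele from each parental line and develop diabetic kidney disease. The treatment label is none for lean and obese rats, while the protocol gives the untreated obese rats a vehicle in their water. Each library is taken as 1 rat, as the titles number them, and had 10000 cells loaded after digestion of the perfused kidney and clearing of debris and dead cells.

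The libraries held 4232 to 18427 cells with a median of 407 to 3092 UMIs per cell. UMIs (unique molecular identifiers) count captured RNA molecules. Lean rat 2 stood apart, with the lowest median of all libraries and at most 769 UMIs in any IC-A/B cell. Results that rest on it are given with and without it. No cell of the table had more than 2971 genes. Cells with at least 2500 genes made up 11.2% of IC-A and 13.5% of IC-B cells and 0% of IC-A/B cells. Of the IC-A/B cells, 53 shared their barcode with a cell of another library (2.98%, against 2.86% of all cells), and 2 barcodes were IC-A/B in a pair of libraries.

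Far fewer UMIs were counted per IC-A/B cell than per cell of either single name. The median UMIs per IC-A/B cell were 891, 416, 1107 and 1077 in lean rats 1 to 4, 1046, 873, 1150 and 1134 in obese rats 1 to 4, and 691, 1298.5 and 834 in treated rats 1 to 3. IC-A cells of the same animals had medians of 490.5 to 7784.5 UMIs, and IC-B cells 528 to 7721.5. In every animal the joint type lay below both single types. The mean over animals was 956 ± 249 UMIs (SD, n = 11) for IC-A/B, 4675 ± 2182 for IC-A and 5257 ± 2543 for IC-B.

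Within animals, the log2 median UMIs of IC-A/B cells lay 2.07 ± 0.78 (SD, n = 11) below that of IC-A cells, a 4.21-fold difference. The gap to IC-B cells was 2.21 ± 0.86, or 4.64-fold. Each was lower in 11 of 11 animals, with an exact two-sided sign-flip permutation p of 0.000977, the smallest that 11 animals allow, and 0.00195 after adjustment over the 10 comparisons of this kind. The gaps were smallest in lean rat 2, the shallow library, at 0.24 against IC-A and 0.34 against IC-B. Without lean rat 2 they were 2.26 and 2.40. UMIs come from the same cells that were named, so these tests show how steady the gap was over animals and are no independent evidence for the name. The median number of genes was lower too. It was 499 ± 123 in IC-A/B cells (SD, n = 11), 2.96-fold below IC-A and 3.03-fold below IC-B, again in 11 of 11 animals (exact sign-flip permutation test, adjusted p = 0.00195 for each).

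At equal UMIs the difference in genes did not pass the test. Cells were compared within bins of 0.5 on the log2 scale of UMIs that held at least 5 cells of both names, which 10 of the 11 animals had. There the log2 median genes of IC-A/B differed by -0.03 ± 0.13 from IC-A (SD, n = 10; exact sign-flip permutation test, adjusted p = 0.449, lower in 5 of 10 animals). Against IC-B the difference was 0.02 ± 0.06 (exact sign-flip permutation test, adjusted p = 0.449, lower in 4 of 10). Treated rat 3 had no such bin and is missing from both.

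**Figure D1:**
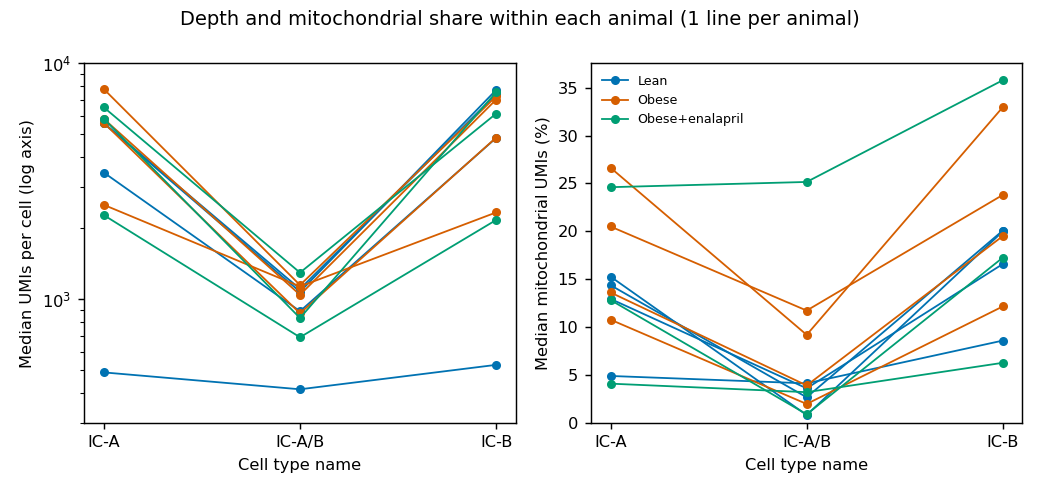
Median UMIs per cell (left, log axis) and median percent of UMIs from mitochondrial genes (right) of IC-A, IC-A/B and IC-B cells, with 1 line per animal and the group by colour. The joint type is the lowest in UMIs in all 11 animals, and the flat line at the lower edge of the left panel is lean rat 2.

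Among all cell types, IC-A/B had the lowest mean of median UMIs. In the 10 libraries other than lean rat 2 it was the lowest, the second lowest or the next of 17 to 20 types with at least 20 cells, and it was the lowest in 6 of them. In lean rat 2 it ranked 11 from the bottom of 17. TAL, the thick ascending limb of the loop of Henle, was next in this order with a mean of 992 UMIs, and the within-animal difference between them was 0.00 ± 0.42 on the log2 scale (SD, n = 11; exact sign-flip permutation test, adjusted p = 0.974). In genes per cell TAL stood just below with a mean of 488 and DCT, the distal convoluted tubule, just above with 626. Neither difference passed the adjusted test (0.04 ± 0.25 against TAL, adjusted p = 0.974, and -0.29 ± 0.34 against DCT, adjusted p = 0.0645, exact sign-flip permutation tests). These comparisons with the neighbouring types belong to a family of 6 that was chosen after the order was seen.

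The share of UMIs from mitochondrial genes was low in most IC-A/B cells, although intercalated cells are mitochondria-rich. The median was 3.601%, 4.12%, 2.66% and 0.809% in lean rats 1 to 4, 9.19%, 11.7%, 3.90% and 1.96% in obese rats 1 to 4, and 3.20%, 0.889% and 25.2% in treated rats 1 to 3. Treated rat 3, with 40 IC-A/B cells the smallest set, was far above the others. IC-A cells had a mean of medians of 14.6% ± 7.12 (SD, n = 11) and IC-B cells 19.4% ± 9.10, against 6.11% ± 7.15 in IC-A/B cells.

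Within animals the median mitochondrial percent of IC-A/B cells was 8.49 ± 5.83 percentage points (SD, n = 11) below that of IC-A cells. It was lower in 10 of 11 animals, the exception being treated rat 3 with a difference of 0.55 (exact sign-flip permutation test, adjusted p = 0.00244). Lean rat 2 and treated rat 1, the shallowest libraries, had differences of only -0.77 and -0.89 points. Against IC-B cells the median of IC-A/B cells was 13.3 ± 6.14 points lower, in 11 of 11 animals (exact sign-flip permutation test, adjusted p = 0.00195). At matched UMIs the mean gaps were wider, at 14.4 ± 8.80 points below IC-A and 18.04 ± 7.74 points below IC-B. Both held in 10 of 10 animals (exact sign-flip permutation test, adjusted p = 0.00244 for each). Some of these values rested on few cells, counted as the smaller of the IC-A/B and single-type numbers in each bin. Obese rat 1 had 11 such cells against IC-A (-26.6 points) and 10 against IC-B (-24.7 points). Lean rat 4 had 17 and 18 (-16.5 and -29.2 points). Lean rat 2, with the most such cells (264 and 175), had the smallest gaps, at -1.19 and -4.79 points. Obese rat 4 had 64 such cells against IC-A, and there the gap narrowed from -8.81 to -5.19 points. In the other matched animals the gap to IC-A widened. These matched values leave out treated rat 3, the exception above, and without it the unmatched gaps were 9.39 and 13.5 points. Like UMIs, the mitochondrial share comes from the cells that were named. These tests therefore show how steady the gap was over animals and are no independent evidence for the name.

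The mitochondrial share varied widely among the IC-A/B cells themselves. Over all 1777 cells the 10th, 25th, 50th, 75th and 90th percentiles were 0.0699%, 0.645%, 3.62%, 11.7% and 27.8%, and the highest cell reached 49.7%. Cells with under 1% mitochondrial UMIs made up 30.2% ± 14.9 of the joint type in each animal (SD, n = 11), with a range of 7.50% to 53.7%. The same share was 2.602% ± 5.005 in IC-A and 2.37% ± 5.75 in IC-B cells. At the other end, 15.03% of all IC-A/B cells had at least 20%. By depth, the mean of the animals' medians was 6.52% ± 8.47 in IC-A/B cells with under 1000 UMIs (SD, n = 11), 5.84% ± 5.63 in those with 1000 to under 2000 UMIs (n = 10) and 5.77% ± 4.59 in those with more (n = 7), over animals with at least 10 such cells, so the animals behind these means differ. The 29 deepest cells, with at least 4000 UMIs, had a pooled median of 12.9%. IC-A and IC-B cells with at least 2000 UMIs had 15.3% ± 6.69 and 20.6% ± 8.54 (SD, n = 10 each).

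**Figure D2:**
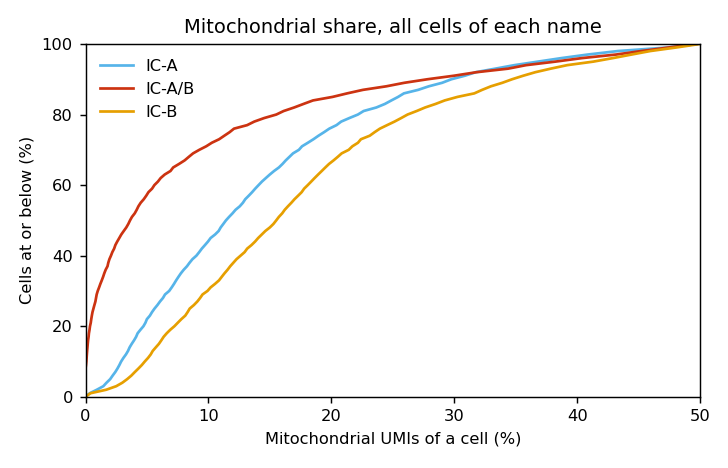
Cumulative percent of cells (vertical axis) against the percent of UMIs from mitochondrial genes (horizontal axis) for all IC-A, IC-A/B and IC-B cells, pooled over animals. The IC-A/B curve rises steeply near 0, has its median at 3.62% and meets the IC-A curve near the upper end, while the IC-B curve stays lowest over most of the range.

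In the order of mean mitochondrial percent over types, IC-A/B with 6.11% stood between macrophages (5.69%) and B cells (7.28%). The B cell mean covers only the 7 animals with at least 20 such cells, and the other means cover 11. In those 7 animals IC-A/B lay 0.73 points above B cells on average, so its place below them came from unlike sets of animals. The IC-A/B mean also held treated rat 3, at 25.2%. The differences did not pass for macrophages (0.42 ± 5.83 points, SD, n = 11; adjusted p = 0.974) or for B cells (0.73 ± 6.16 points, SD, n = 7; adjusted p = 0.974) in exact sign-flip permutation tests. TAL, its match in UMIs, had 20.3% ± 13.5, and IC-A/B lay 14.1 ± 11.1 points below it, in 10 of 11 animals (exact sign-flip permutation test, adjusted p = 0.0176). Another joint name, PCT/PST for convoluted and straight proximal tubule, also had few mitochondrial UMIs. PCT/PST lay 13.1 ± 5.59 points below the mean of PCT and PST, and IC-A/B lay 10.9 ± 5.84 points below the mean of IC-A and IC-B (SD, n = 11 each). The difference between these gaps was 2.27 ± 4.69 points (exact sign-flip permutation test, adjusted p = 0.154). In UMIs the gap of IC-A/B was wider, at -2.14 ± 0.81 on the log2 scale against -0.52 ± 0.26 for PCT/PST, in 10 of 11 animals (exact sign-flip permutation test, adjusted p = 0.00391). This pair of comparisons was also chosen after the values were seen.

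Among intercalated cells with at least 500 UMIs, how often a cell carried the joint name fell with its UMIs. Over all animals it was the name of 42.2% of intercalated cells with under 500 UMIs, nearly all of them from lean rat 2, 59.3% of those with 500 to under 1000 UMIs, 51.9% with 1000 to under 2000, 14.7% with 2000 to under 4000 and 1.18% with at least 4000. At least 4000 UMIs were found in 2457 of the 6627 intercalated cells, and 29 of these were IC-A/B, or 1.63% of the joint type, against 50.1% of IC-A and 50% of IC-B cells. Without lean rat 2 the joint name took 85.1% of the cells with 500 to under 1000 UMIs and 84.4% of the 32 cells with fewer.

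A pair of libraries departed from this pattern. In lean rat 2, 11.9% of the 446 intercalated cells with 500 to under 1000 UMIs were IC-A/B, against 65.7% to 96% in the other 10 animals, and in its 599 cells with fewer than 500 UMIs the share was 39.9%. In treated rat 1 the share was 76.2% at 500 to under 1000 UMIs, inside the range of the others, and fell to 7.63% at 1000 to under 2000, where the other 8 animals with at least 20 such cells had 57.1% to 79.2%. These 2 libraries were also the shallowest, with 407 and 1132 median UMIs over all cells.

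**Figure D3:**
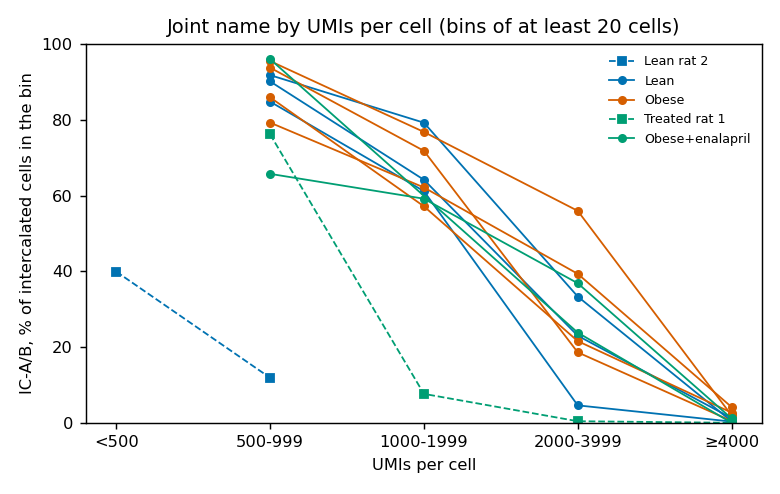
Percent of intercalated cells that carry the joint name IC-A/B (vertical axis) by UMIs per cell (horizontal axis), with 1 line per animal, the group by colour, and bins of at least 20 intercalated cells. The lines of 10 animals fall to at most 4.17% at 4000 UMIs or more, the dashed line of treated rat 1 falls earlier, and that of lean rat 2 ends at 11.9% at 500 to under 1000 UMIs for want of deeper cells.

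The joint name was also frequent among cells of low mitochondrial share. Of the intercalated cells with under 1% mitochondrial UMIs, 85.9% were IC-A/B, against 40.2% of those with 1% to under 5%, 19.7% of those with 5% to under 10%, 12.8% of those with 10% to under 20% and 16.3% of those with 20% or more. In the 8 animals with at least 20 such cells, the share below 1% was 86.2% ± 11 (SD), with a range of 70.5% to 96.7%.

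On the authors' map IC-A/B cells formed a group of their own that touched both single types. The map covers the same cells as the names, and it is given as a description without a test. The centre of IC-A/B (median of each axis) lay 3.23 ± 0.18 map units from that of IC-A and 3.05 ± 0.19 from that of IC-B within each animal (SD, n = 11). IC-A and IC-B lay 4.51 ± 0.15 units apart, and PC, the principal cells of the same duct, 8.19 ± 0.21 units away. The centres of the 11 animals stayed within 0.435 units of the common centre, with treated rat 3 the farthest. By distance, 52.7% ± 6.68 of the IC-A/B cells of an animal were nearer to the centre of IC-B than to that of IC-A, with 39.4% in lean rat 2 and 63.3% in treated rat 2 as the extremes.

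Of the 30 nearest cells on the map, 92.4% ± 3.64 were IC-A/B cells themselves (mean over animals, SD, n = 11), 1.67% ± 1.14 were IC-A and 1.64% ± 1.35 were IC-B. The names outside the intercalated cells that came most often were PCT/PST with 1.97% ± 1.47 and PCT with 1.51% ± 1.55. IC-A and IC-B cells had more of their own kind around them, at 98.9% ± 0.81 and 98.2% ± 0.98. The IC-A cells had 1.02% ± 0.83 IC-A/B and 0.0325% ± 0.11 IC-B neighbours, so cells of the single types were seldom neighbours of each other.

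Not all IC-A/B cells lay in that group. For 105 of them (5.91%), from all 11 animals, fewer than 50% of the neighbours were IC-A/B. In this set, PCT/PST was the most frequent neighbour of 35 cells, PCT of 24, IC-B of 24 and IC-A of 14. The 105 cells had a median of 1375 UMIs and 12.9% mitochondrial UMIs, against 832 UMIs and 3.42% in the other 1672. The share of such cells was 5.46% ± 3.10 in lean (SD, n = 4), 5.63% ± 1.92 in obese (SD, n = 4) and 9.15% ± 4.99 in the 3 treated rats, and treated rat 1 had the highest value with 14.7%.

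**Figure D4:**
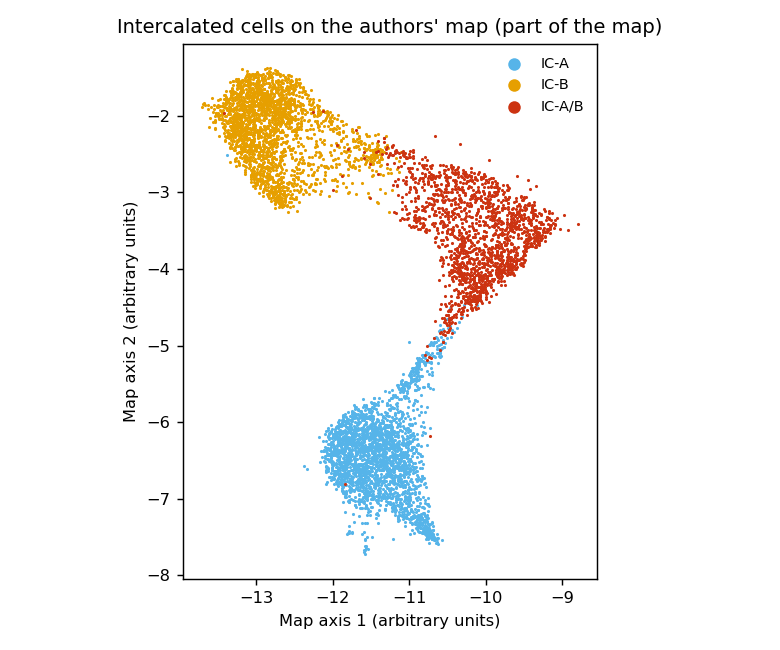
Part of the authors' map with each point a cell, both axes in arbitrary units, and IC-A, IC-B and IC-A/B cells by colour. IC-A/B cells lie to the right, joined by a narrow stretch of cells to IC-A below and by another to IC-B at the upper left, and 67 of the 1777 IC-A/B cells lie elsewhere on the map and are not shown.

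The first comparison between groups asked whether obese kidneys held a different share of IC-A/B cells than lean ones. IC-A/B cells made up 1.96%, 6.90%, 2.18% and 2.27% of the cells of lean rats 1 to 4 and 0.618%, 1.63%, 2.50% and 1.13% of those of obese rats 1 to 4. Lean rat 2 was far above the other lean rats. Obese rat 3 lay above 3 of the 4 lean rats and the other 3 obese rats below all of them. The exact 95% Clopper-Pearson intervals cover counting error only. They were 0.479% to 0.784%, 1.35% to 1.95%, 2.22% to 2.80% and 0.981% to 1.29% in obese rats 1 to 4. These did not overlap, so the spread between obese rats was larger than counting error. In lean rats 1, 3 and 4 the intervals overlapped, at 1.71% to 2.24%, 1.87% to 2.53% and 1.92% to 2.67%. Among lean rats only rat 2 stood apart, at 6.15% to 7.71%.

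The share was lower in obese rats, but the call rested on single animals. In edgeR's quasi-likelihood test the log2 fold change was -1.18 ± 0.49 (SE) with a Benjamini-Hochberg adjusted p of 0.0468, in a fit that called 60% of the 20 types tested and called 30% lower. The median log2 fold change over the 20 types was -0.29. Without lean rat 2 the mean of the lean rats went from 3.33% ± 2.38 (SD, n = 4) to 2.14% ± 0.158 (n = 3), and the fold change to -0.54 ± 0.44 (adjusted p = 0.309). Leaving out obese rat 1, 2 or 4 gave -0.92, -1.23 and -1.06 (adjusted p = 0.147, 0.0804 and 0.0959), and leaving out treated rat 1, 2 or 3 gave -1.18 each time (adjusted p = 0.0574, 0.0689 and 0.0517), so the call was lost in 7 of 11 such fits. Among non-immune cells alone, IC-A/B made up 3.77% ± 2.48 in lean and 2.26% ± 1.26 in obese rats (SD, n = 4 each; -0.73 ± 0.49, adjusted p = 0.267). Without lean rat 2 the lean mean among non-immune cells was 2.53% ± 0.165 (SD, n = 3).

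Treated rats had the smallest shares. IC-A/B cells made up 0.797%, 0.786% and 0.513% of the cells of treated rats 1 to 3, all below every lean rat, whereas obese rat 1 lay within their range. The log2 fold change of treated against lean rats was -2.24 ± 0.57 (edgeR, adjusted p = 0.00938), in a fit that called 15% of the 20 types and called 10% lower. The median over the 20 types was -0.06. It stayed below the threshold in all 11 fits with 1 animal left out, with values of -2.43 to -1.61 and adjusted p of 0.00462 to 0.0463. Without lean rat 2 it was -1.61 ± 0.48 (adjusted p = 0.00776). Among non-immune cells it was -2.14 ± 0.57 (adjusted p = 0.0226). An exact permutation test of the logit shares, which cannot go below 0.0571 with 3 against 4 animals, gave an adjusted p of 0.190.

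Between treated and untreated obese rats the share was 0.698% ± 0.161 (SD, n = 3) against 1.47% ± 0.800 (SD, n = 4), a log2 fold change of -1.06 ± 0.54 that did not pass (edgeR, adjusted p = 0.337). edgeR called 0% of the 20 types here, and 2 types had an unadjusted p under 0.05. DESeq2 called 1 type, and limma on logit shares called 0. The exact permutation test of logit shares could call none, since it cannot go below 0.0571 with 3 against 4 animals. The median over the 20 types was -0.09. Among non-immune cells the value was -1.41 ± 0.55 (adjusted p = 0.353).

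The single types also had lower shares in obese rats. IC-A and IC-B had log2 fold changes of -1.64 ± 0.53 and -1.73 ± 0.51 for obese against lean rats (edgeR, adjusted p = 0.0141 and 0.0118). These are shares of all cells, not cell numbers. In the same fit 6 types were called higher. B cells, monocytes, the joint monocyte and macrophage type and T cells had 3.39, 1.66, 2.12 and 1.13. The other called types were tubule cells, DTL (descending thin limb) with 1.62 and PST with 1.28. Between treated and untreated obese rats the IC-A and IC-B values were 0.29 ± 0.56 and 0.34 ± 0.53 (adjusted p = 0.680 and 0.670). Between treated and lean rats they were -1.35 ± 0.58 and -1.39 ± 0.55 (adjusted p = 0.0974 and 0.0846), lower as in IC-A/B but not called. Without lean rat 2 the obese against lean values were -0.92 ± 0.44 for IC-A (adjusted p = 0.0715) and -1.30 ± 0.44 for IC-B (adjusted p = 0.0116), and the fit called 2 types lower in place of 6. PC cells had -0.26 ± 0.42 and 0.39 ± 0.45 in these comparisons (adjusted p = 0.583 and 0.646). Over all animals IC-A/B cells were 1.94% ± 1.80 of the cells (SD, n = 11), next to TAL with 1.86% ± 0.429 and IC-B with 2.36% ± 1.90, and these neighbours lay within each other's spread.

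Whether the joint type shifted against the single types was tested on the share of IC-A/B among all intercalated cells. This share was 26.3%, 27.9%, 22.3% and 32.3% in lean rats 1 to 4, 20.6%, 34.02%, 35.5% and 51.5% in obese rats 1 to 4, and 15.4%, 17.6% and 18.3% in treated rats 1 to 3. Obese rats 2 to 4 lay above all lean rats and obese rat 1 below all of them, and each treated rat lay below all lean and all untreated obese rats. Lean rat 2, high in the share of all cells, lay inside the lean range here. The number of intercalated cells behind each value was 219 to 1048.

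The means were 27.2% ± 4.16 in lean (SD, n = 4), 35.4% ± 12.7 in obese (SD, n = 4) and 17.1% ± 1.48 in the 3 treated rats. Obese and lean rats differed by 8.21 percentage points (exact two-sided permutation test, p = 0.257, adjusted p = 0.257). Treated rats lay 18.3 points below untreated obese rats, and 10.1 points below lean rats. For each, the exact permutation test gave p = 0.0571 (adjusted p = 0.0857 over the 3 comparisons). No lower two-sided p can be had from 3 and 4 animals, so this design could not reach the threshold.

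Since the joint name went mainly to cells with few UMIs, these shares are given beside the depth. The median UMIs over all cells were 1530 ± 827 in lean (SD, n = 4), 2402 ± 524 in obese (SD, n = 4) and 2120 ± 865 in the 3 treated rats, with wide overlap. Without lean rat 2 the lean value was 1904.5 ± 430 (SD, n = 3). Among intercalated cells with at least 1000 UMIs, IC-A/B made up 12.2% ± 8.79 in lean, 24.5% ± 12.1 in obese and 8.25% ± 5.63 in treated rats. Treated rats were then 16.3 points below untreated obese rats, with 2 of 3 below all of them (exact permutation p = 0.114), and 3.99 points below lean rats, with 0 of 3 below all of them (exact permutation p = 0.629). The lean mean held lean rat 2, whose share of 0% came from 3 cells, too few to set a share. Without that rat the lean mean was 16.3% ± 4.01 (SD, n = 3) and the treated rats lay 8.07 points below it, with 2 of 3 below all lean rats (exact permutation p = 0.3). Among those with under 1000 UMIs, a setting chosen after the data were seen, the treated rats were at 79.2% ± 15.5 and the lean rats at 73.8% ± 30.7, a difference of 5.34 points in the other direction (exact permutation p = 0.971). This direction came from lean rat 2, where 292 of 1045 such cells, or 27.9%, were IC-A/B, against 85.3% to 91.8% in the other lean rats. Without it the lean mean was 89.1% ± 3.38 (SD, n = 3) and the treated rats lay 9.95 points below it, with 2 of 3 below all lean rats (exact permutation p = 0.4). Leaving out lean rat 2 in these settings was also chosen after the data were seen. The part of depth in the group differences was not tested beyond these settings.

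**Figure D5:**
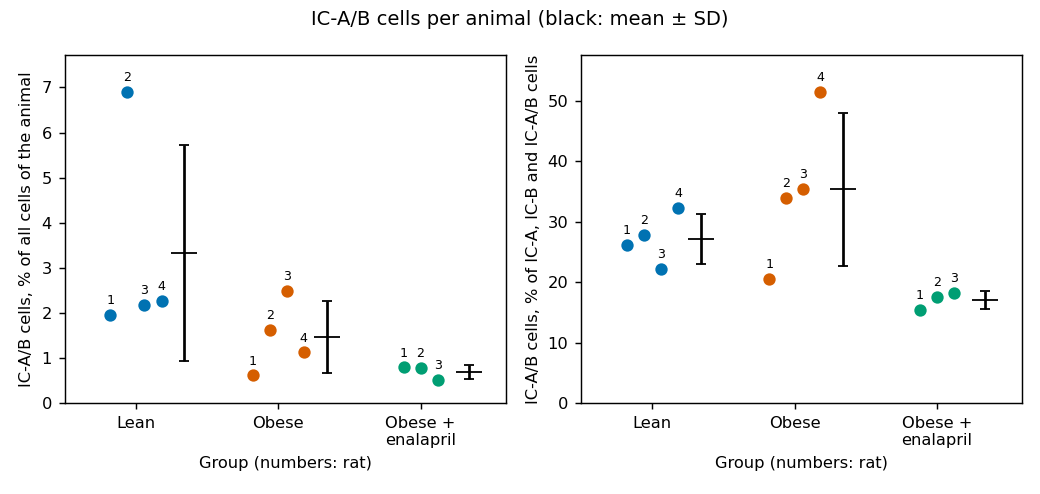
IC-A/B cells as percent of all cells (left) and as percent of all intercalated cells (right), with 1 numbered point per rat and the mean ± SD in black. Lean rat 2 stands apart on the left with 6.90% but not on the right, and the 3 treated rats lie between 15.4% and 18.3% on the right, below all other rats.

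Within the joint type, UMIs, genes and mitochondrial share did not pass the test between any groups. The per-animal medians were 873 ± 319 UMIs in lean (SD, n = 4), 1051 ± 127 in obese (SD, n = 4) and 941 ± 318 in the 3 treated rats. The log2 difference of obese against lean rats was 0.36 ± 0.47 (SE; limma, adjusted p = 0.482) and 0.03 ± 0.39 without lean rat 2 (adjusted p = 0.930), that of treated against untreated obese rats -0.20 ± 0.51 (adjusted p = 0.927) and that of treated against lean rats 0.16 ± 0.51 (adjusted p = 0.808). limma called 0% of 18 types in UMIs and in genes in each comparison, with 2, 0 and 1 types at an unadjusted p under 0.05 in either measure. The median log2 difference in UMIs over the 18 types was 0.80, -0.26 and 0.58. In genes the IC-A/B values were 0.28 ± 0.40, -0.15 ± 0.43 and 0.12 ± 0.43 (adjusted p = 0.556, 0.940 and 0.873).

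Median mitochondrial percent was 2.80% ± 1.46 in lean (SD, n = 4), 6.69% ± 4.53 in obese (SD, n = 4) and 9.75% ± 13.4 in the 3 treated rats. The obese rats exceeded the lean rats by 3.90 ± 4.69 points (SE; limma, adjusted p = 0.477), in a test that called 5.56% of 18 types. The median difference over the 18 types was 4.33 points. The treated rats exceeded untreated obese rats by 3.06 ± 5.07 points (adjusted p = 0.697; 0% called, 1 type at an unadjusted p under 0.05) and lean rats by 6.95 ± 5.07 points (adjusted p = 0.880; 5.56% called). Both rested on treated rat 3, since without it they were -4.65 and -0.75 points.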

How the data were processed

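The deposited table has 1 line per cell. UMIs and genes per cell are counts, not normalized, deposited by the authors; the mitochondrial percent, the S and G2M score and the map coordinates (taken as a score without unit) were also deposited by the authors, with the phase, group and cell type names, per the file headers. Cell Ranger 7.0.1, Seurat 4.3.0 and the build rn6 stand in the submitters' processing notes, without their roles. Cell filters, clustering and any handling of doublets or free RNA are not described in these sources. That libraries came from separate rats is read from the titles. If they did not, p-values measure only the spread between these samples. Some sample codes of the same group share a prefix, and no prefix is shared between groups. Any unit behind the prefix is nested in the group, and its part was not tested. Each cell was assigned to its rat through the sample code in the labels (0 cells without a match).

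Cells per type and animal were fitted over 3 groups with edgeR 4.0.16 (quasi-likelihood, robust, no dispersion trend, all cells of the animal as library size), on 20 types with a mean of at least 10 cells. Medians per type and animal from at least 20 cells were compared with limma 3.58.1 on 18 types. Adjustment was by Benjamini-Hochberg with a threshold of 0.05. SEs of edgeR values were derived from its F statistic. For single values, animals were permuted exactly between groups, or signs flipped within animals, and p is two-sided. Alternatives used DESeq2 1.42.0 and limma on logit shares. The scripts were tested on simulated data. Python 3.11.15 and R 4.3.3 were used. Named types were IC-A/B, IC-A, IC-B, PC, the types next to IC-A/B in the order of means and the 2 most frequent map neighbours. Members, lists and tests were chosen with earlier results of these data known.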

Additional observations from a re-analysis of the deposited data

Results flagged for a closer look

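The IC-A/B share of all cells of lean rat 2, 6.90%, was far from the other lean rats, at 1.96% to 2.27%, with a gap of 0.938 of the group's range, above the limit of Dixon's test for 4 samples. This is the library with 407 median UMIs per cell, and intercalated cells of all 3 names made up 24.8% of it, against 7.03% to 9.80% in the other lean rats. The part of depth in this value was not tested. The percent of IC-A/B cells called S in obese rat 1, 26.9%, lay below the other obese rats, at 31.25% to 31.3% (gap 0.988 of the range). Chance flags about 1 group in 20, and 18 groups were looked at.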

How the results depend on the processing

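The lower IC-A/B share of all cells in obese against lean rats held with DESeq2, with TMM factors, without the filter on rare types and in 4 of 11 fits with 1 animal left out, and was lost otherwise: -1.17 with limma on logit shares (adjusted p = 0.0562) and in the exact permutation test of them (adjusted p = 0.176), -0.73 among non-immune cells, -0.52 among cells with at least 1000 UMIs, -1.02 among cells with under 10% mitochondrial UMIs and -0.28 among cells with under 1000 UMIs, the last chosen after seeing the data. With 1 animal left out it ranged from -1.56 to -0.54. The treated against lean change was lost in the exact permutation test (-2.10) and among cells with under 1000 UMIs (-1.57, adjusted p = 0.145), with the causes not tested, and the treated against untreated change was called in no setting.

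Types called in obese against lean rats were 12 in the reported fit, 0 in the permutation test, 3 among non-immune cells, 6 with at least 1000 UMIs, 3 with under 1000 UMIs and 7 to 13 with 1 animal left out (7 without lean rat 2). For treated against untreated rats they were 0, with 1 in DESeq2, 1 with at least 1000 UMIs and 0 to 1 with 1 animal left out (1 without lean rat 2). For treated against lean rats they were 3, with 7 in DESeq2 and 0 with under 1000 UMIs. The permutation test could call none in either comparison with treated rats, as it has too few animals to reach the threshold.

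Same-numbered rats of different groups were not paired by the labels, and the correlation of their deviations ran from -0.444 to 0.516, over 0.1 in 5 of 10 pairs. With the replicate number as a block, the obese against lean change was -1.09 (adjusted p = 0.0804), treated against lean -2.13 (adjusted p = 0.0324), and 3 types were called between treated and untreated rats and 5 between treated and lean rats. Paired by number, the IC-A/B share of intercalated cells differed by 8.21, -12.9 and -8.34 points. The block changed no other call.

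That share for treated against lean rats reversed to 5.34 points among cells with under 1000 UMIs. This came from lean rat 2, without which it was -9.95 points, while obese against lean went from 14.7 to -0.58 points. With 1 animal left out, differences that no setting called changed sign: log2 UMIs of treated against lean rats (-0.17 to 0.35, without lean rat 2 or treated rat 2), log2 genes of the same (-0.16 to 0.27) and of obese against lean rats (-0.0059 to 0.41, without lean rat 2), and mitochondrial percent of treated against untreated (-4.65 to 7.49) and lean rats (-0.75 to 11.4, without treated rat 3). The 10 within-animal comparisons with IC-A and IC-B kept direction and side of the threshold in all 13 alternatives each, and the map neighbours moved by less than 1 SD with 15 or 50 neighbours. Shares of rare cells are limited by counting: the 40 IC-A/B cells of treated rat 3 gave 0.367% to 0.697%.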

Other observations

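The authors' phase calls were not compared at equal UMIs and are given as values. Of the IC-A/B cells, 27.1% ± 6.12 were called S and 27.3% ± 3.93 G2M (SD, n = 11), against 30.1% ± 6.99 and 22.0% ± 4.77 in IC-A and 35.7% ± 7.49 and 29.4% ± 3.77 in IC-B cells. Lean rat 2 had the lowest S share of IC-A/B cells, at 12.3%, and also of IC-A (11.2%), IC-B (15.3%) and PC cells (6.56%). IC-A/B cells made up less of the UMIs than of the cells of a library, with 0.179% to 1.09% of all UMIs in the 10 libraries other than lean rat 2. In lean rat 2 it was 6.82%, against 6.90% of the cells.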
